A study of Mus musculus with 6 samples.

Results

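The genes described here are 8 keratins of the hair follicle, taken by name from the 38258 genes of the deposited table: *Krt25*, *Krt27*, *Krt28*, *Krt71*, *Krt72*, *Krt73*, *Krt31* and *Krt35*. All 8 names were found, each once, among 54 keratin genes. RNA-seq was done on back-skin epidermal cells of newborn mice (postnatal day 0), taken by flow cytometry as positive for EpCAM and Sca1 with high α6-integrin, a gate for basal cells of the interfollicular epidermis. In 1 group the 3 libraries carry only the genotype label Control, and the 3 of the other carry Eed -/- Ring1a-/- Ring1b-/-, a loss of core subunits of both Polycomb repressive complexes. The Cre driver, the alleles of the controls and whether each library is a separate animal are not given in the sources used here, so the spread behind each p-value may be only technical. The question is which transcripts change when both Polycomb complexes are lost from these cells.

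Keratins are the intermediate filament proteins of epithelia, and each filament pairs a type I with a type II chain. The growing hair is surrounded by the inner root sheath, a sleeve of concentric layers that moulds and guides the shaft and is shed before the hair leaves the skin. *Krt25*, *Krt27* and *Krt28* are type I chains of this sheath, and *Krt71*, *Krt72* and *Krt73* are type II chains. *Krt31* and *Krt35* are type I hair keratins, which form the hard, cysteine-rich filaments of the shaft. All of them are products of cells inside the follicle and not of the interfollicular basal layer that the gate selects.

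The deposited values are normalized counts, and changes are differences of mean log2(normalized count + 1), labelled knockout minus control, ± SE. The libraries summed to between 21896285 and 29805729 normalized counts. The most frequent low value of a library, taken as about 1 read, was 0.7161 to 1.31, so values below about 3 rest on very few reads. Of the targeted genes, *Ring1* (Ring1a) went against the labels, with 67.7, 104 and 112 normalized counts in the libraries labelled triple knockout against 11.8, 8.72 and 23.1 (log2 change 2.70 ± 0.40, limma adjusted p = 0.000759). *Eed* was lower (log2 change −0.82 ± 0.21, limma adjusted p = 0.0144), a call lost without control replicate 2 or labelled knockout replicate 1 or 3 and after removal of GC content and length (adjusted p from 0.00508 to 0.132 over the alternatives). *Rnf2* (Ring1b) did not pass (log2 change −0.24 ± 0.22, limma adjusted p = 0.417). The exons removed by the alleles are not known here, and groups are called by their labels throughout. The basal keratin *Krt5*, a marker of the sorted layer, stood at 202722 ± 43238 in the controls and 108256 ± 6531 in the labelled knockouts (SD, n = 3 each).

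RNA of *Krt25*, *Krt27*, *Krt28*, *Krt71* and *Krt73*, 5 of the 6 inner root sheath keratins described, was present in all 3 control libraries and was at or near 0 in all 3 libraries labelled triple knockout. Of the 8 keratins, 5 were called lower, all of the sheath, 0 were called higher by limma (0 also at an unadjusted p under 0.05), and the shaft keratin *Krt35* did not pass. *Krt72* and *Krt31* had means below 10 over the 6 libraries and were not tested. Over all 23006 tested genes, 15.3% were called lower and 20.5% higher. Each of the 5 had a labelled knockout mean below the filter and passed it through the controls, so their count is a description. Fewer sheath cells and less RNA per cell cannot be told apart in these bulk libraries.

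Among the type I sheath chains, *Krt25* (ENSMUSG00000035831.2, 99315516 to 99322951 on chromosome 11 of GRCm38) had normalized counts of 55.1, 108 and 216 in controls 1, 2 and 3 and was listed at 0 in each labelled knockout. It had the highest control mean of the 8 (126 ± 82.1, SD, n = 3) and no RNA detected in the other group. The difference passed (log2 change −6.78 ± 0.58, limma adjusted p = 3.6e-05), with a size that depends on the pseudocount because the labelled knockouts stood at 0. *Krt27* (ENSMUSG00000017588.2, 99345565 to 99351104) had 10.5, 57.7 and 81.4 in the controls against 1.78, 0 and 0. Control 1 was far below the other controls and still above every labelled knockout, and the fall passed (log2 change −4.76 ± 0.85, limma adjusted p = 0.00222). *Krt28* (ENSMUSG00000055937.1, 99364872 to 99374903) had 11.8, 35.9 and 56.2 against 1.78, 0 and 1.43, again with no overlap (log2 change −3.99 ± 0.74, limma adjusted p = 0.00273). Its values of 1.78 and 1.43 each equal about 2 reads.

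Among the type II partners, *Krt71* (ENSMUSG00000051879.4, 101733949 to 101743109 on chromosome 15), whose mutation gives wavy coats in mice, had 38.0, 92.5 and 177 in the controls against 2.66, 0 and 1.43. It was the most abundant type II chain of the sheath and fell, with no overlap of the groups (log2 change −5.38 ± 0.68, limma adjusted p = 0.000338). *Krt73* (ENSMUSG00000063661.6, 101793308 to 101802346) had 15.7, 18.5 and 33.2 in the controls and was listed at 0 in each labelled knockout (log2 change −4.48 ± 0.69, limma adjusted p = 0.00102). *Krt72* (ENSMUSG00000056605.7, 101776172 to 101786460) was barely detected in either group, with 2.27, 3.77 and 0 against 0, 0 and 1.24. Its groups overlapped, and no difference was detectable at this depth.

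The shaft keratins were low in the controls too. *Krt35* (ENSMUSG00000048013.9, 100092193 to 100096241 on chromosome 11), an early keratin of the hair matrix and cortex, had 16.4, 25.4 and 20.8 in the controls against 15.4, 12.3 and 4.14. The groups did not overlap, but the lowest control and the highest labelled knockout differed by only 0.087 on the log2 scale, and the change did not pass (log2 change −1.05 ± 0.52, limma adjusted p = 0.147). *Krt31* (ENSMUSG00000048981.1, 100046646 to 100050551), a keratin of the cortex, had 3.94, 5.44 and 10.0 against 0, 0 and 2.87. With no filter on low values its log2 change was −2.17 (limma adjusted p = 0.0505), which did not pass either. Whether shaft and sheath keratins changed by different amounts was not tested.

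**Figure D1:**
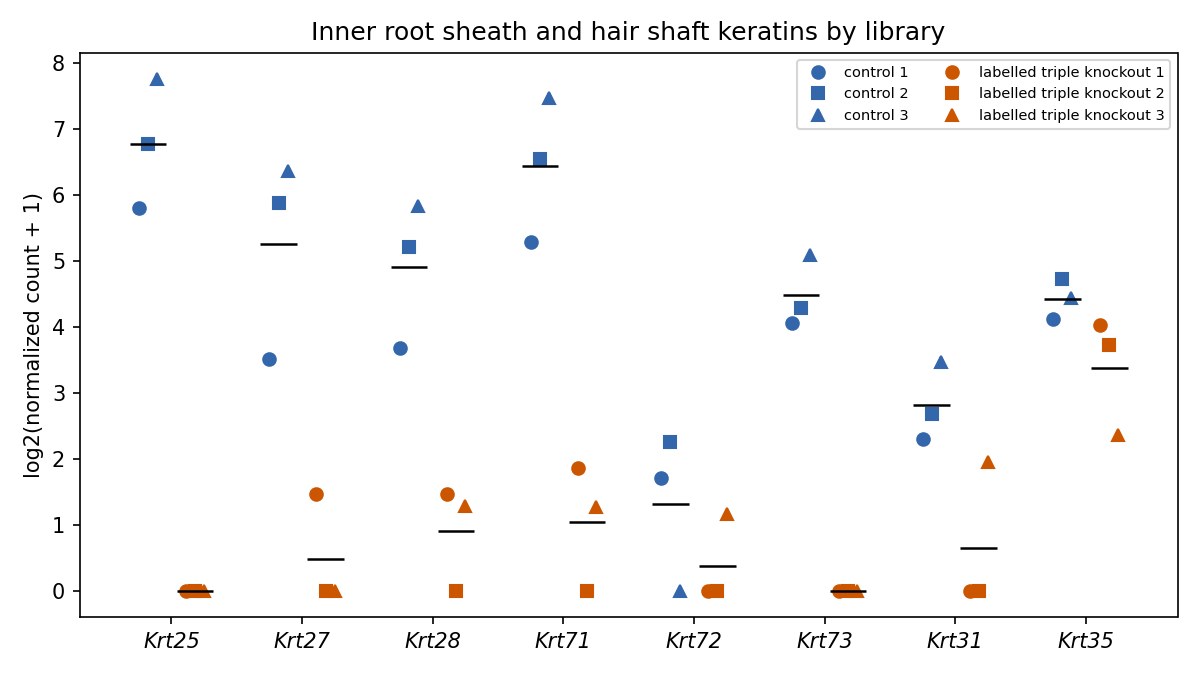
Level of each keratin on the log2(normalized count + 1) scale, 1 point per library, with controls in blue, libraries labelled triple knockout in orange and a bar at each group's mean. The 5 called sheath keratins are at or near 0 in orange and spread widely in blue, while the *Krt35* groups nearly touch.

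Every labelled knockout lay below every control for 7 of the 8 keratins, *Krt72* being the exception, and 23.0% of all tested genes showed that order. The exact permutation test over libraries, two-sided, gave p = 0.1 for each of these 7, the smallest p that 3 against 3 libraries allow, and p = 0.4 for *Krt72*. The 5 limma calls held in every alternative that tested the gene, those that left out each library included, with adjusted p of at most 0.0168.

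The control libraries differed from each other more for the 5 called sheath keratins than for most genes. Control 3 was the highest control for 6 of the 8 keratins and control 1 the lowest for 7. The order control 3 above 2 above 1 was shown by 6 of the 8 and by 18.6% of tested genes. The highest control exceeded the lowest 7.75-fold for *Krt27*, 4.76-fold for *Krt28*, 4.65-fold for *Krt71* and 3.92-fold for *Krt25*, against 2.11-fold for *Krt73* and 1.55-fold for *Krt35*. On the log2 scale the SD of the 3 controls was 1.52 for *Krt27*, 1.11 for *Krt28*, 1.10 for *Krt71* and 0.98 for *Krt25*. The median SD was 0.39 over the 12588 tested genes with control means of 10 to 200, with *Krt73* above it (0.54) and *Krt35* below it (0.30). Among the 5 called genes the lowest control exceeded the highest labelled knockout by 2.05 (*Krt27*) to 5.81 (*Krt25*) on that scale.

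Levels were compared between genes per kilobase of mean annotated transcript length. Control means of normalized counts per kilobase were 63.5 for *Krt25*, 46.9 for *Krt71*, 32.2 for *Krt27*, 21.3 for *Krt28*, 10.4 for *Krt73*, 10.1 for *Krt35*, 4.10 for *Krt31* and 1.51 for *Krt72*. *Krt25* exceeded *Krt71*, and *Krt71* exceeded *Krt27*, in each of the 3 controls. *Krt28* was above *Krt27* in control 1 (7.27 and 6.77 per kilobase) and below it in the others. *Krt73* and *Krt35* also changed places between controls, so neither pair differed beyond its spread. Summed per kilobase, the type I sheath chains stood at 41.8, 114 and 196 in controls 1, 2 and 3 and the type II chains at 26.4, 53.7 and 96.2. The type I to type II ratio was 1.58, 2.12 and 2.04, so it varied much less than either sum. The 8 keratins made up 0.0352, 0.109 and 0.161 percent of all keratin normalized counts in the controls and 0.00669, 0.00399 and 0.00367 percent in the labelled knockouts.

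Reads from similar transcripts could be assigned among these genes. Of the 31-base words in the annotated transcripts, 15.7% of those of *Krt25* and 17.8% of those of *Krt27* also occur in other genes. For each these are the other of the pair, *Krt28* and the far more abundant *Krt15*. *Krt15* had means of 52924 in the controls and 17407 in the labelled knockouts. The share was 5.77% for *Krt28*, 5.15% for *Krt71*, 4.44% for *Krt73*, 2.50% for *Krt72* and 5.77% for *Krt35*. The abundant *Krt5* is among the genes that share words with *Krt73*. For *Krt31* it was 38.9%, shared with other hair keratins, and its value is uncertain on that account. Most of the genes that share a word with *Krt35* are not keratins, and the words shared with each were not counted. The value of *Krt35* is uncertain too. In labelled knockouts 1, 2 and 3 *Krt35* stood at 17.37, 11.59 and 5.79 times the most frequent low value, which are not whole reads. What part of the level of any of these keratins was assigned from other genes was not tested.

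The genes lie in the keratin clusters of 2 chromosomes. *Krt25*, *Krt26*, *Krt27* and *Krt28* follow each other within 59.4 kb of chromosome 11, and *Krt71*, *Krt74*, *Krt72* and *Krt73* within 68.4 kb of chromosome 15. *Krt26*, a sheath keratin that lies between *Krt25* and *Krt27*, had 31.5, 26.1 and 24.1 normalized counts in the controls against 39.9, 31.8 and 34.4. It did not move with its neighbours by this test (log2 change 0.37 ± 0.29, limma adjusted p = 0.36). *Krt74*, named here for its position, was below the filter, with 1.34, 14.4 and 4.09 against 0.904, 0 and 0. *Krt10*, the suprabasal keratin next to *Krt28*, fell from 16007 ± 4089 to 5455 ± 1246 (log2 change −1.54 ± 0.22, limma adjusted p = 0.000659).

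Of 29 tested keratins outside the 8, 18 were called higher and 6 lower, with a median log2 change of 2.97, beside a median of 0.0082 over all tested genes. Of these 18, 4 had control means below 10 and passed the filter through the labelled knockouts. With no filter 21 of 45 were higher and 7 lower, with a median of 1.05. *Krt75*, the keratin of the companion layer that borders the sheath, rose from 43.2, 55.4 and 35.2 in the controls to 743, 985 and 463 (log2 change 3.96 ± 0.30, limma adjusted p = 1.78e-05). Of 12 further hair shaft keratins in the table, 10 were below the filter. *Krt32*, a cuticle keratin, had 23.9, 49.5 and 39.5 against 16.2, 19.3 and 5.08 (log2 change −1.53 ± 0.52, limma adjusted p = 0.0457). That call was lost without control replicate 2 or 3, without labelled knockout replicate 1 or 3 and in limma with neither trend nor robust estimation (adjusted p from 0.0266 to 0.143 over the alternatives). *Krt87*, a type II hair keratin, rose from 5.37 ± 4.25 to 133 ± 8.07 (log2 change 4.65 ± 0.52, limma adjusted p = 0.000161).

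**Figure D2:**
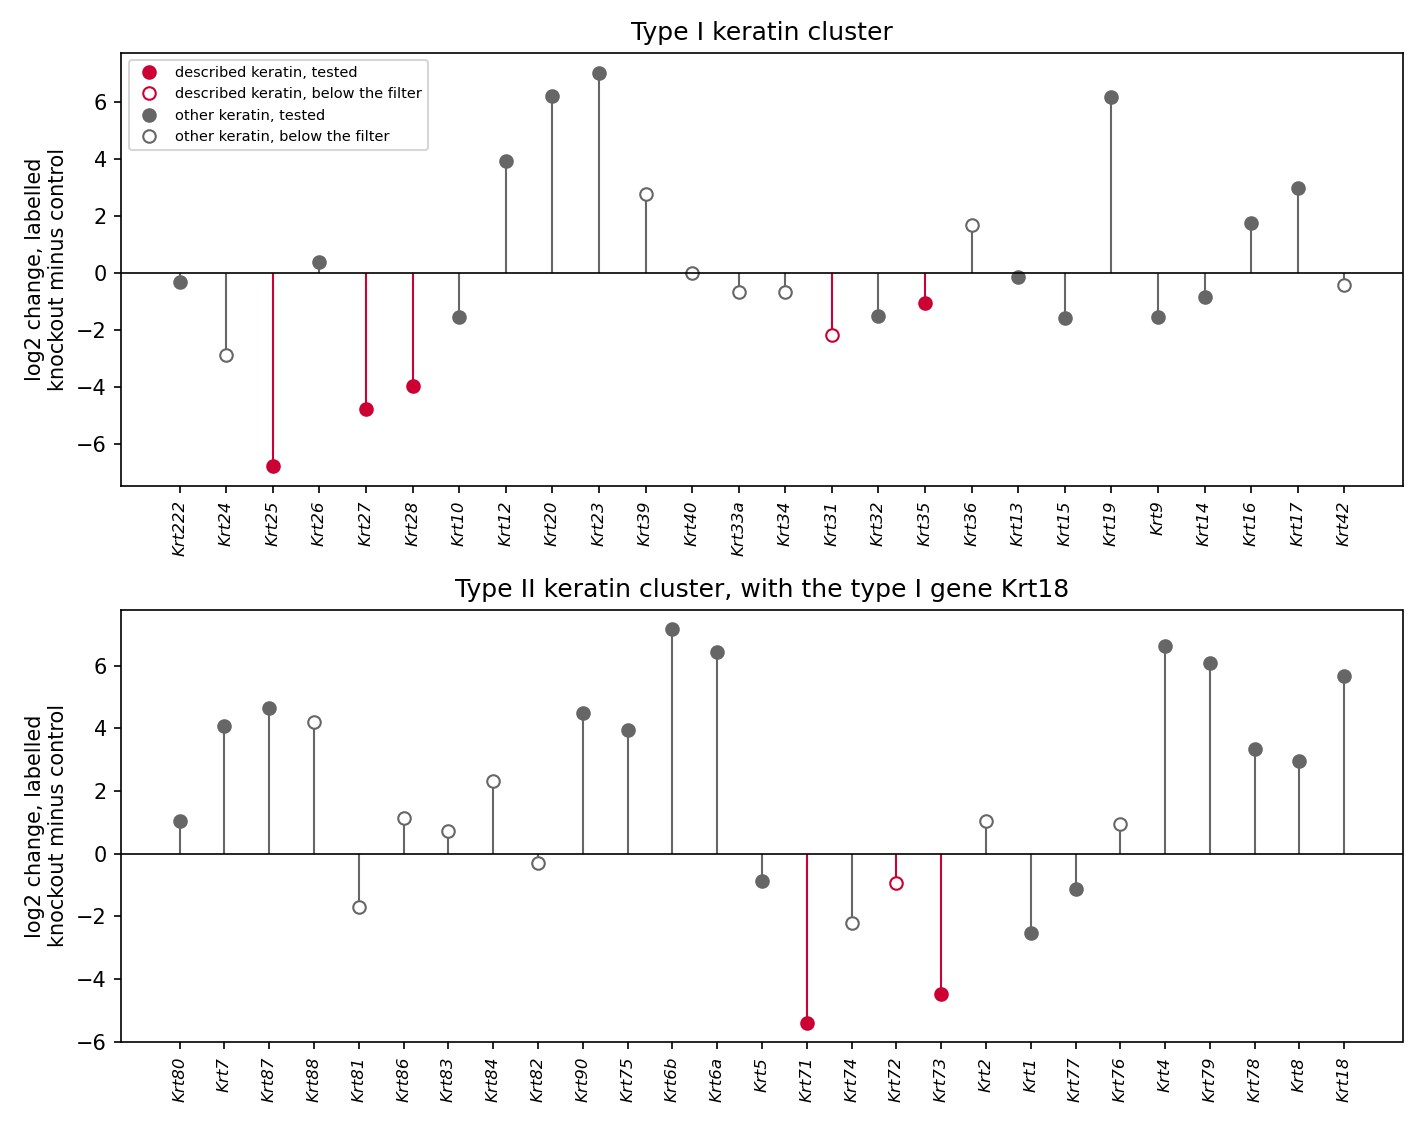
Difference of mean log2(normalized count + 1) for the 53 keratin genes of the chromosome 11 (top) and chromosome 15 (bottom) clusters, in genomic order and not to distance, with the 8 described keratins in red and genes below the filter as open circles. *Krt25*, *Krt27*, *Krt28*, *Krt71* and *Krt73* lie lowest among the filled points, while *Krt26*, between *Krt25* and *Krt27*, is near 0.

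The bases before the start site are shown for the 5 keratins called lower and for *Krt26*, because genes that lie side by side differed in their change. Each is the 250 bases before the annotated start, 5′ to 3′ on the gene's strand, from RefSeq (GRCm38.p6), where 7 of the 8 names matched. Capitals mark GATAA, a core bound by GATA factors, on either strand, and TATAAA, the TATA box, on the gene's strand.
Krt25, chr11:99322952-99323201, minus strand: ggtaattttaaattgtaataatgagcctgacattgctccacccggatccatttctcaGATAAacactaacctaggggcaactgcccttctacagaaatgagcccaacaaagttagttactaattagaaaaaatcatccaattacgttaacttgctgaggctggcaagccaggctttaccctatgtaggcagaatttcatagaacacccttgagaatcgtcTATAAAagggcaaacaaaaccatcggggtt
Krt27, chr11:99351119-99351368, minus strand: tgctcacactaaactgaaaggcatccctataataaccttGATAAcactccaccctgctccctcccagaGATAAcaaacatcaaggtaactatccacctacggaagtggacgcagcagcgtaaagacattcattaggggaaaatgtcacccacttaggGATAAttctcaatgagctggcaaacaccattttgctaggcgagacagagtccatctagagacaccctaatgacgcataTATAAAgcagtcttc
Krt28, chr11:99374904-99375153, minus strand: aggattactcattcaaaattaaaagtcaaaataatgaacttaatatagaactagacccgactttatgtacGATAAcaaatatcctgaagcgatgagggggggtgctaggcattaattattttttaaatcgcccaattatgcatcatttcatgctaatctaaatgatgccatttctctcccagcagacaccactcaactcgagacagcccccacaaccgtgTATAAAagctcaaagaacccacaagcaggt
Krt71, chr15:101743098-101743347, minus strand: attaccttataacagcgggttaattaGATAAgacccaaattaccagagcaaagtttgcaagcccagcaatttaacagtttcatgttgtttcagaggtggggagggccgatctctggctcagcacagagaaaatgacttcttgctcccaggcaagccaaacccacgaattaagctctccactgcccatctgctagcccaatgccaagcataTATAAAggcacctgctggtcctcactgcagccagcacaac
Krt73, chr15:101802361-101802610, minus strand: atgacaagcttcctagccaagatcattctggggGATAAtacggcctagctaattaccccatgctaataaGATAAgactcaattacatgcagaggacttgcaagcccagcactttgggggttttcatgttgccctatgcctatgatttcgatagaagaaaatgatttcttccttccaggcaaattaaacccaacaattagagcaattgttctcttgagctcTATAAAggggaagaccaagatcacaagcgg
Krt26, chr11:99337966-99338215, minus strand: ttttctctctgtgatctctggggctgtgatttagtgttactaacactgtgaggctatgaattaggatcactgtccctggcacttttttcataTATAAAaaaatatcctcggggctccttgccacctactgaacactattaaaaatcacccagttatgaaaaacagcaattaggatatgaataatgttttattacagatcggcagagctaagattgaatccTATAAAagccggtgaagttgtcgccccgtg

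In these windows GATAA was found for each of the 5 called keratins and not for *Krt72*, *Krt31* or *Krt26*. Of these, *Krt72* and *Krt31* were below the filter, so their change was not tested. GATAA occurs on either strand in 22.6% of all 32851 windows of this length and in 19 of 36 keratin windows. *Krt27* had 3 matches, at −211, −182 and −93 from the start, and *Krt73* had 2, at −217 and −181. *Krt25*, *Krt28* and *Krt71* had 1 each, at −193, −180 and −224.

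A search for TATAAA on either strand found it in all 7 windows, and in 12.4% of all windows, and it shares the letters ATAA with the GATA core. In the window of *Krt72* it was on the opposite strand only. TAATTA, a homeodomain core, was found in 4 (4.84% of all windows). CTTTGA, a core of Lef and Tcf factors, was found in 2 (13.8%), as was GACGC, a core of Foxn1 (22.6%). *Krt71* and *Krt73* shared the run ttgcaagcccagca, 14 bases that start at −196 and −154. The motifs were chosen after the windows and values had been seen, and a match is a description and not a binding site.

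Among 17 listed regulators of the hair matrix and sheath, 7 rose, 5 fell and 5 did not pass, and the list's median log2 change was 0.28. *Gata3*, the GATA factor that the sheath lineage needs in mice, fell from 2917, 3119.5 and 2821 in the controls to 1363, 1157 and 1310.1 (log2 change −1.21 ± 0.13, limma adjusted p = 0.000113). *Ovol1*, a zinc-finger factor of epidermis and follicle, fell from 1771 ± 693 to 335 ± 106 (log2 change −2.36 ± 0.31, limma adjusted p = 0.000447). *Foxq1*, a forkhead factor of the hair medulla, rose from 36.8 ± 11.7 to 676 ± 46.2 (log2 change 4.21 ± 0.26, limma adjusted p = 6.55e-06). *Msx1*, a homeobox gene of the hair matrix, rose from 9.97 ± 5.48 to 174 ± 39.8 (log2 change 4.09 ± 0.40, limma adjusted p = 7.42e-05). The others called higher were *Bmp4* (log2 change 3.01), *Hoxc13* (2.35), *Prdm1* (1.90), *Cux1* (1.40) and *Msx2* (1.14). The groups of *Msx2* overlapped (limma adjusted p = 0.0372). The others called lower were *Wnt10b* (log2 change −1.35), *Bmp2* (−1.03) and *Lef1* (−0.94). Whether any of these regulators has a part in the fall of the sheath keratins was not tested. *Dlx3* (803 ± 40.3 against 980.1 ± 159, limma adjusted p = 0.201) and *Foxn1* (149 ± 4.14 against 214 ± 19.8, limma adjusted p = 0.0533), factors of shaft differentiation, did not pass. The sign of their difference turned after removal of GC content and length, and *Foxn1* passed with a filter of 50.

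Structural genes of sheath and shaft other than keratins were also mixed. Of 14 listed, 11 were tested, with 5 higher, 1 lower, 5 not passing and a median log2 change of 0.57. The count higher was 3 without control 2 or labelled knockout 1 or 2 and with quantile normalization, limma without trend and robust estimation or removal of GC content and length. The count lower was 0 without control 1 or 2 or labelled knockout 1 or 3. *Tchh*, trichohyalin of the sheath and medulla, rose from 371, 484 and 562 in the controls to 711, 663 and 701 (log2 change 0.57 ± 0.18, limma adjusted p = 0.0346). This call was lost in 8 of 15 alternatives, which include each library left out but control 3, and its sign turned after removal of GC content and length (adjusted p from 0.00549 to 0.748). *Cdsn*, corneodesmosin, had 45.9, 26.1 and 44.2 against 999, 1163 and 766 (log2 change 4.64 ± 0.27, limma adjusted p = 4.62e-06). *Cst6*, a cysteine protease inhibitor, had 97.0, 59.8 and 54.2 against 1122, 1301 and 1066 (log2 change 4.07 ± 0.24, limma adjusted p = 5.06e-06). Cornifying epidermis expresses both. *Tgm3*, a transglutaminase that cross-links sheath proteins, did not pass (105 ± 8.72 against 98.8 ± 27.5, limma adjusted p = 0.744). Outside this list, 20 genes of keratin-associated proteins were in the table. Only 3 of them were tested, with 1 higher, 2 lower and a median log2 change of −2.49.

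Markers of other cells that the gate could carry over were read in the same libraries. The 15 outer root sheath and bud markers summed to 32909.5, 33674 and 47629.5 normalized counts in controls 1, 2 and 3 and to 45977, 48781 and 46358 in the labelled knockouts. Of these, 3 rose, 4 fell and 8 did not pass, with 5 higher without control 3, and 8 of the 15 showed the control order 3 above 2 above 1. The sums without *Krt17*, which injury also induces (3238 ± 1154 against 24492 ± 2332), and *Postn*, a matrix protein (15743 ± 3290.2 against 902 ± 258), were 16441, 17306 and 23523 against 20234, 21394 and 23304. *Sox9*, a factor of the outer root sheath, rose from 3005 ± 680.1 to 7673 ± 524 (log2 change 1.37 ± 0.16, limma adjusted p = 0.00024).

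The 17 markers of fibroblasts, dermal papilla, endothelium, leukocytes and muscle summed to 8798, 13308 and 31738 in the controls and to 10608, 14388 and 16124 in the labelled knockouts. Of the 13 tested, 0 passed limma in either direction, and 1 was higher and 2 lower at an unadjusted p under 0.05. Without control 1, 3 were lower, and without control 3, 3 were higher. The control order of the sheath keratins was shown by 9 of the 17, and *Cd207*, a marker of Langerhans cells, was listed at 0 in each control. Control 3 was thus high in dermal and bud markers as well as in the described sheath keratins other than *Krt72*. In the labelled knockouts both sums lay above that of control 1. Neither list was chosen to mark the inner root sheath, so these sums cannot show how many of its cells were carried over. Abundant genes weigh most in these sums, and single markers differed. *Sox9* (2584 in control 1 against 7070, 7924 and 8024) and *Dcn* (3527 against 4099, 5694 and 7004) lay above control 1. *Lrig1* lay below it (2307 against 1713, 1643 and 1925), and *Col1a2* lay on both sides (1252 against 878, 1331 and 1205). What part a different share of carried-over cells has in the fall of the 5 called keratins was not tested.

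The genes of the sorted proteins differed between the groups as well. *Ly6a*, which encodes Sca1, rose from 173 ± 64.0 to 1393 ± 120.4, *Epcam* rose from 1788 ± 542 to 3258 ± 123, and *Itga6* fell from 23785 ± 5486 to 7670.0 ± 212 (limma adjusted p = 2.64e-05, 0.00578 and 0.000133). Whether the gate took different cells from the groups was not tested.

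**Figure D3:**
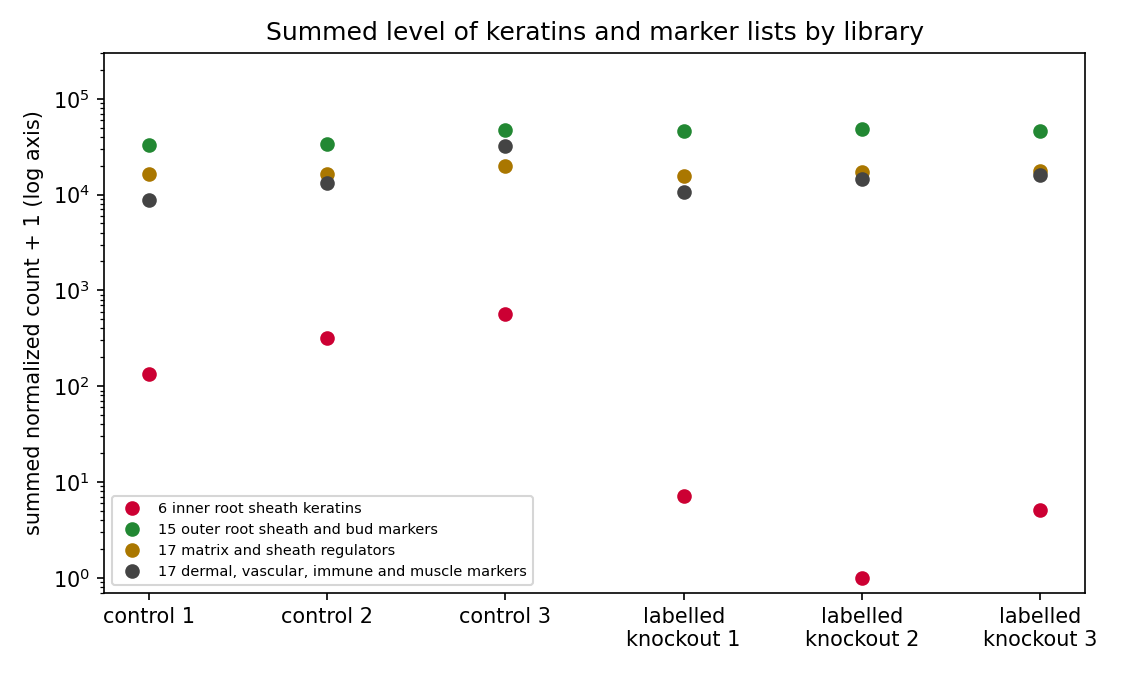
Summed normalized count + 1 on a log axis for the 6 inner root sheath keratins and 3 marker lists, 1 point per list and library. The sheath keratins sum to between 133 and 564 in the controls and between 0 and 6.22 in the labelled knockouts, while the outer root sheath, regulator and dermal sums exceed that of the keratins in every library.

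The genes whose profile over the 6 libraries was most like the mean of the 6 tested keratins were *Nepro*, *Mettl13*, *Dsel*, *Mob2*, *Fas*, *Stam*, *Rabl3* and *Vmn2r114*, with Pearson r of 0.995 to 0.998. The 6 points fall into the 2 groups, which alone give a high r. Log2 changes of these genes lay between −1.45 (*Fas*) and −0.55 (*Mettl13*), and 0 of the 8 are keratins.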

How the data were processed

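The authors deposited a table of normalized counts per gene and library. Per the file headers the authors had normalized this signal before they deposited it, and its values are not whole numbers. The submitters' processing notes name kallisto 0.42.5 and DESeq2. The annotation and options are not given in the sources used here. Of the 38258 genes, 98.4% had coordinates and strand identical to GENCODE M21 (GRCm38), which gave transcript lengths. Exact depth is unknown, so no counting interval is given, and a listed 0 may be a failed estimate.

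Differences were tested on log2(normalized count + 1) with limma 3.58.1 in R 4.3.3 (trend, robust, no covariate, 3 libraries per group) over the 23006 genes with a mean of at least 10. P-values were adjusted over all of these by Benjamini-Hochberg, with a threshold of 0.05. The procedure was tested on simulated data. The changed genes there had higher mean log2 values and smaller changes than the called keratins, so that run does not cover them. Single keratins also had an exact permutation test over the 20 assignments of libraries.

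The 8 keratins and all lists were chosen with earlier results of these data known. Other genes were named by rule, up to 6 called genes of a list by p, up to 4 abundant ones that did not pass, and the 8 most alike in profile, and the text gives a selection of these made after their values were seen. Alternatives changed the pseudocount (0.5, 5), the filter (none, 50), the scaling (median-ratio, quantile), limma's trend and robust estimation, the block and the GC and length correction, or left out 1 library.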

Additional observations from a re-analysis of the deposited data

How the results depend on the processing

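The 5 calls of lower sheath keratins kept their direction and passed in each alternative that tested them, and *Krt35* passed in none (adjusted p 0.0625 to 0.401). Log2 changes ranged over −7.77 to −4.52 for *Krt25*, −6.07 to −3.86 for *Krt71*, −5.63 to −2.98 for *Krt27*, −4.62 to −2.53 for *Krt28* and −5.45 to −2.41 for *Krt73*. With a mean of at least 50, 2 keratins were called lower, because only *Krt25* and *Krt71* passed that filter. Quantile normalization shifted the median log2 change over all genes to −0.17 and the higher share of calls from 57.3% to 45.6%, and relative to that shift the keratins remained lower. Deviations of same-numbered libraries correlated at 0.06, −0.02 and 0.02, so no strong shared deviation was seen. The labels do not say whether the numbers pair the libraries, and these correlations cannot settle it. With the replicate block, 5 keratins and 3345 genes were lower and 4761 higher, 5 of the outer root sheath and bud markers among them, and of the dermal and immune markers 1 was higher and 2 lower. Over the libraries left out in turn, 2495 to 4016 genes were lower and 5 keratins each time. After removal of GC content and length, signs turned for *Tchh* (−0.087), *Dlx3* (−0.26), *Foxn1* (−0.10) and *Rnf2* (0.13). *Tgm3* ranged from −0.34 to 0.0103 over the libraries left out. The cause was not tested. Of 373 alternative values for 25 of the other named genes, 351 kept sign and call. Alternative values of the remaining named genes are not given here. Depth limits *Krt72* and *Krt31*, which rest on few reads.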
